A study of Ovis aries with 2 samples.

Results

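In sheep blood cells, 10 genes of the NF-kB system were followed: the 5 subunits NFKB1, NFKB2, REL, RELA and RELB, and 5 genes grouped here as inhibitors, NFKBIA, NFKBIZ, TNFAIP3, BIRC3 and TRAF1. They were chosen by name, and all 10 were found among the 26814 gene names of the count tables. Peripheral blood mononuclear cells (PBMC) were profiled by droplet single-cell RNA sequencing of transcript 3′ ends, in which each captured molecule carries a unique molecular identifier (UMI). The A.G.-ES library came from sheep with a suture embedded on both sides at the acupuncture point ST36, which the series title describes as eluting astragaloside IV and glycyrrhizic acid in weaned lambs. The untreated library came from sheep without embedding, and no library of sheep with a drug-free suture was analysed here. Each group had 1 library, and neither the number of animals behind it nor their sex, nor the time between embedding and blood collection, was given in the sources used here.

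NF-kB proteins act as dimers. In resting mammalian cells the inhibitor IκBα, the product of NFKBIA, holds them in the cytoplasm until upstream kinases mark it for destruction and the dimers enter the nucleus. Their targets include several genes that act back on the pathway. The genes grouped here as inhibitors are among them, and the list is not complete. It holds NFKBIA itself and TNFAIP3 (A20, a ubiquitin-editing enzyme that damps signalling). It also holds BIRC3 (cIAP2, a ubiquitin ligase with both promoting and restraining roles) and TRAF1 (an adaptor with either role depending on the receptor). The last is NFKBIZ (IκBζ, a nuclear protein that restrains some targets and is needed for others). These roles are known mainly from human and mouse work.

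Since a group is a single library, differences between the groups could not be tested and have no replicate behind them. The 95% intervals given with values hold counting error and nothing else. Levels are UMIs summed over the barcodes of a class and scaled to 1000000 UMIs of that sum (CPM). They are 3′ counts, so levels are compared between classes or libraries within 1 gene and not between genes. A ratio is A.G.-ES over untreated, and a gene was called apart when its ratio was at least 1.5 or at most 0.667 and the 2 libraries together had 50 UMIs or more.

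The files held 9638 barcodes with 44485442 UMIs for A.G.-ES and 8246 barcodes with 55861418 UMIs for untreated. After filters and doublet removal 8737 A.G.-ES and 7565 untreated barcodes remained, with medians of 4100 and 5130 UMIs. The libraries also differed in UMIs of 85 Y-linked genes, at 753 in A.G.-ES and 40426 in untreated, and in the mitochondrial share of UMIs, at 2.20% and 1.37%. With 1 library per group, these differences, and any difference in the sex of the animals, go with the groups in every ratio below. They cannot be told apart from the treatment, and their part in the results was not tested. Only 61 barcode sequences occurred in both libraries.

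Barcodes were sorted into 6 classes by marker genes. The class sizes were 1946 A.G.-ES and 3520 untreated B barcodes, 991 and 254 CD4 T, 457 and 155 CD8B T, 299 and 490 SOX13/RHEX T, 104 and 30 NK, and 188 and 108 monocyte barcodes. SOX13/RHEX T barcodes are T cells with at least 2 UMIs of SOX13 and RHEX together and none of CD4 or CD8B. The gates left 45.6% of A.G.-ES and 60.2% of untreated kept barcodes in a class, and 1277 A.G.-ES and 326 untreated T barcodes fell outside the T subsets. Median depths were 5132 and 8821.5 UMIs in B, 4945 and 5620.5 in CD4 T, 4527 and 5693 in CD8B T, 4667 and 4261.5 in SOX13/RHEX T, 2046.5 and 2382 in NK, and 7254 and 5646 in monocyte barcodes. Markers not used in the gates followed the names only in part. Summed over 7 monocyte genes the level was 5677 CPM in A.G.-ES and 5952 CPM in untreated monocytes, and over 6 T cell genes it was 1641 and 1601 CPM in CD4 T. In SOX13/RHEX T the same T cell genes summed to 435 and 379 CPM, below their sums in NK. A list of 8 CD8 or NK genes summed to 7170 and 5060 CPM in CD8B T and to 5188 and 3416 CPM in NK. The 6 B genes summed to 335 and 388 CPM in B, but also to 285 and 422 CPM in SOX13/RHEX T, where BLK gave nearly all of it. In B barcodes the 7 monocyte genes summed to 275 and 319 CPM, with S100A8 at 1.72 and 0.604 CPM, so that CTSS and CYBB, which B cells also express, made up most of that sum. NK barcodes carried T cell genes at 933 CPM in A.G.-ES and 662 CPM in untreated, led by BCL11B, and their small number limits every NK value below.

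Across classes, the genes fell into distinct patterns, and the plot of levels shows them side by side. Monocytes had the highest NFKB1, NFKBIA and NFKBIZ in both libraries by a wide margin. REL was high in both B cells and monocytes. TNFAIP3 was high in monocytes, NK and T cells and lowest in B cells, and BIRC3 was highest in B cells.

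**Figure D1:**
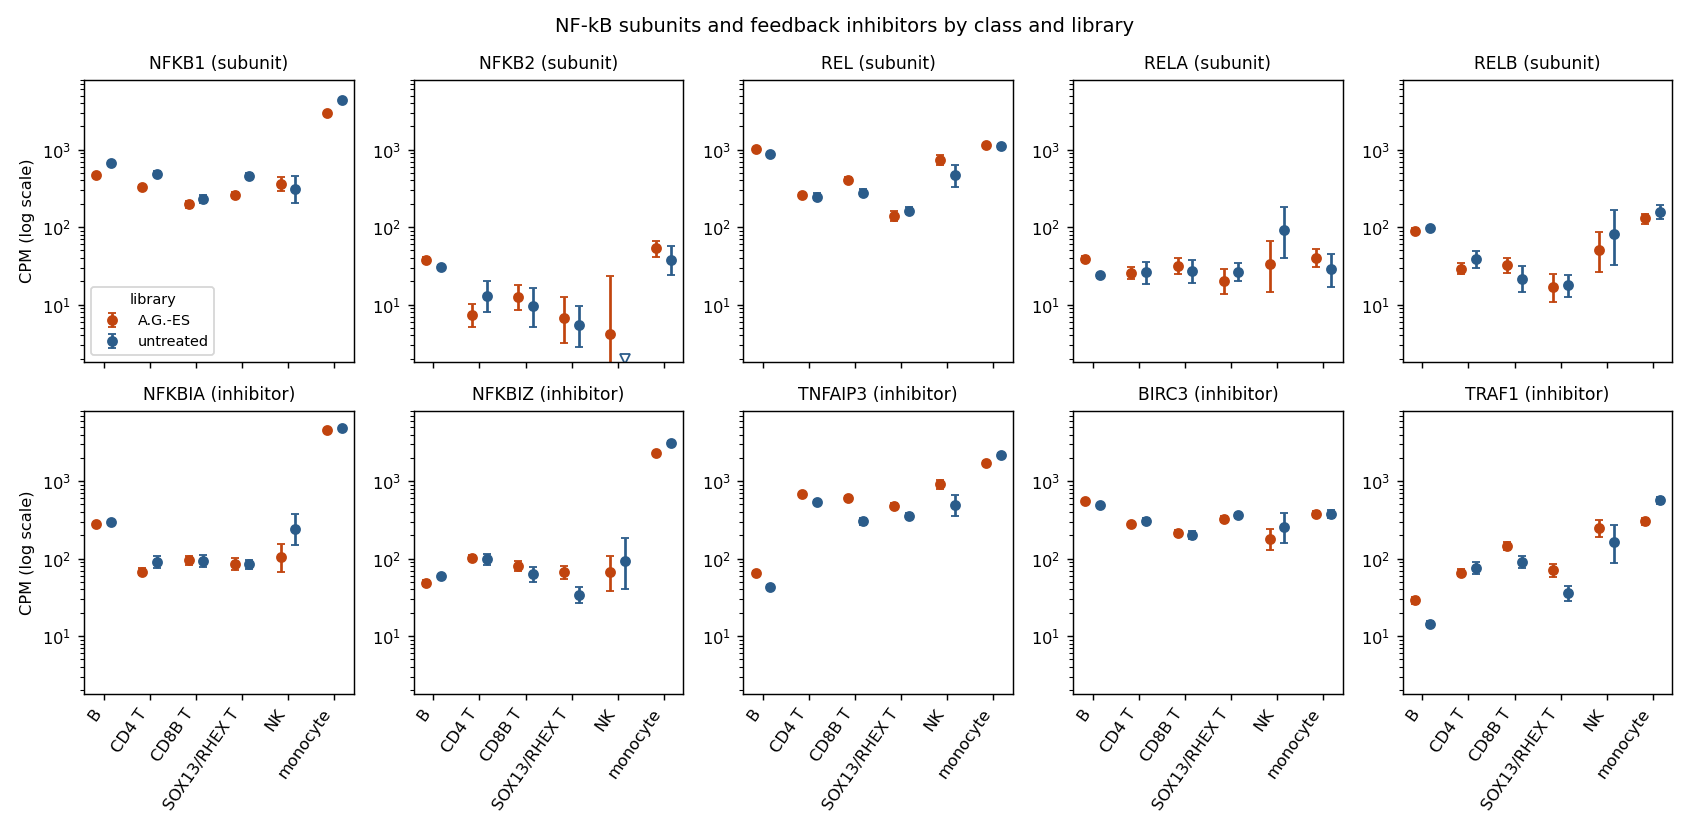
CPM of each of the 10 genes on a log scale in 6 classes, A.G.-ES in orange and untreated in blue, with exact Poisson 95% intervals; an open triangle marks 0 UMIs (NFKB2 in untreated NK). Monocytes stand highest for NFKB1, NFKBIA and NFKBIZ in both libraries, and B cells lowest for TNFAIP3 and TRAF1.

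NFKB1 encodes p105, the precursor of the p50 subunit, which lacks an activation domain. It stood at 2951 CPM in A.G.-ES and 4357 CPM in untreated monocytes, which was 6.28 and 6.49 times the level of the next class, B cells. B cells had 470 CPM in A.G.-ES and 672 CPM in untreated, CD4 T 330 and 492 CPM, SOX13/RHEX T 260 and 463 CPM, and CD8B T 197 and 230 CPM. NK had 364 and 314 CPM. The A.G.-ES value was thus below the untreated one in 5 of 6 classes, with NK the exception and CD8B T turning with the scaling. Of neighbours in the order of classes, NK and CD4 T overlapped in A.G.-ES, and all classes below CD4 T overlapped with the class before them in untreated.

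The NFKB1 ratio was 0.700 (0.679 to 0.721) in B, 0.671 (0.616 to 0.733) in CD4 T, 0.562 (0.499 to 0.633) in SOX13/RHEX T and 0.677 (0.645 to 0.711) in monocytes. Of these 4 classes, SOX13/RHEX T alone was past the threshold for lower. The ratio was also past it under 5 of 11 alternatives in CD4 T, 3 of 13 in monocytes and 1 of 14 in B. In all 4 the ratio stayed below 1 under every alternative run, the highest value being 0.820, in B barcodes of 2000 to 6000 UMIs. CD8B T had a ratio of 0.855 (0.738 to 0.991), which was 1.08 with TMM scaling, 1.05 relative to the median of all genes and 0.625 without cycling barcodes. In NK the ratio was 1.16 (0.746 to 1.86), an interval that includes 1.

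REL encodes c-Rel, a subunit with an activation domain that is known for its role in lymphocyte activation. It was at 1142 CPM in A.G.-ES and 1104 CPM in untreated monocytes, and at 1031 and 867 CPM in B cells. NK had 745 and 465 CPM, CD8B T 411 and 277 CPM, CD4 T 263 and 247 CPM, and SOX13/RHEX T 140 and 163 CPM. This order of classes was the same in both libraries, though in untreated the intervals of CD8B T and CD4 T overlapped. REL ran opposite to NFKB1 in B cells, with a ratio of 1.19 (1.16 to 1.22), and NK was the class past the threshold, at 1.60 (1.13 to 2.32) on 178 A.G.-ES and 40 untreated UMIs. CD8B T had 1.48 (1.31 to 1.68), which was 0.984 without cycling barcodes. CD4 T, monocytes and SOX13/RHEX T had ratios of 1.06, 1.03 and 0.854, with intervals that include 1.

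The makeup of the subunit UMIs also differed between the libraries. REL was 61.8% of subunit UMIs in A.G.-ES B cells and 51.3% in untreated B cells, and NFKB1 was 28.2% and 39.7%. In every class REL took a larger share of the subunit UMIs in A.G.-ES, as in CD4 T (40.1% and 30.2%), CD8B T (60.1% and 49.0%), SOX13/RHEX T (31.5% and 24.2%), NK (62.2% and 48.8%) and monocytes (26.5% and 19.4%). The ratios of NFKB1 and REL were not opposite in every class. Both were below 1 in SOX13/RHEX T (0.562 and 0.854) and both above 1 in NK (1.16 and 1.60). Each class and library contributed 1 value here, and the shares within 1 sum are not independent of each other.

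RELB and NFKB2, whose p100 precursor and p52 product pair with RELB in the slower non-canonical branch, had few UMIs and therefore wide intervals outside B cells and monocytes. RELB had 129 CPM in A.G.-ES and 158 CPM in untreated monocytes, 90.4 and 97.3 CPM in B, and at most 81.3 CPM in any other class. Its ratios did not reach the threshold in any class with 50 UMIs, lying between 0.754 in CD4 T and 1.49 in CD8B T. NFKB2 was highest in monocytes, at 53.1 and 38.0 CPM, and in B, at 37.8 and 30.7 CPM, while untreated NK had 0 UMIs, which allows a level of up to 34.9 CPM (3 counts of 86060 UMIs). In CD4 T, NFKB2 was called lower at 7.28 CPM in A.G.-ES against 13.1 CPM in untreated, but this rested on 37 and 20 UMIs, and the interval of its ratio of 0.556 ran over 0.315 to 1.01.

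RELA, the p65 subunit that pairs with p50 in the classical dimer, was low in every class. Its levels lay between 20.2 and 40.0 CPM in A.G.-ES and between 23.9 and 93.0 CPM in untreated, the highest being 8 UMIs of NK, and all neighbours in the order of classes overlapped. Classes further apart in the order did not all overlap. In A.G.-ES, B had 38.7 CPM (35.1 to 42.5) and CD4 T 25.8 CPM (21.5 to 30.6). In untreated, NK had 93.0 CPM (40.1 to 183) and B 23.9 CPM (22.2 to 25.6). B cells were the 1 class in which the libraries were past the threshold, with 38.7 CPM in A.G.-ES and 23.9 CPM in untreated, a ratio of 1.62 (1.44 to 1.83). The ratio was 1.45 in B barcodes of 2000 to 6000 UMIs and 1.48 in B barcodes with no JCHAIN UMI. The order of classes for RELA was not shared by the libraries, with r = 0.155 for log2 CPM over the 6 classes. RELA had as few as 8 UMIs in NK of each library. The other 9 members had r of at least 0.857. These correlations describe 6 points that share a library on each axis.

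Among the inhibitors, NFKBIA and NFKBIZ had the widest gap between monocytes and the next class. NFKBIA had 4597 CPM in A.G.-ES and 4887 CPM in untreated monocytes, which was 16.5 and 16.6 times the B cell levels of 279 and 294.5 CPM. The T classes had between 68.0 and 94.9 CPM in A.G.-ES and between 84.2 and 93.4 CPM in untreated, and NK had 105 and 244 CPM on 25 and 21 UMIs. The NFKBIA ratio was 0.947 (0.909 to 0.986) in B and 0.941 (0.901 to 0.982) in monocytes. In CD4 T it was 0.754 (0.617 to 0.925), and in SOX13/RHEX T 1.02 (0.805 to 1.28). CD8B T had 1.02 (0.812 to 1.28), which was 0.443 in barcodes of 2000 to 6000 UMIs and 0.525 without cycling barcodes. NK, below the minimum of 50 UMIs, had 0.429 (0.230 to 0.805).

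NFKBIZ was at 2282 CPM in A.G.-ES and 3134 CPM in untreated monocytes, 22.1 and 32.2 times the next class, CD4 T, at 103 and 97.5 CPM. The other lymphocyte classes lay between 48.6 and 79.6 CPM in A.G.-ES and between 34.4 and 93.0 CPM in untreated. Its ratio was 0.728 (0.688 to 0.771) in monocytes and 0.816 (0.740 to 0.898) in B. SOX13/RHEX T went the other way, with 66.8 CPM in A.G.-ES and 34.4 CPM in untreated (99 and 76 UMIs), a ratio of 1.94 (1.42 to 2.65) that was past the threshold under all 11 alternatives.

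TNFAIP3 had 1725 CPM in A.G.-ES and 2185 CPM in untreated monocytes, 908 and 488 CPM in NK, 679 and 538 CPM in CD4 T, 604 and 303 CPM in CD8B T, 480 and 361 CPM in SOX13/RHEX T, and 65.3 and 43.2 CPM in B. It was thus higher in the A.G.-ES library in all 5 lymphocyte classes and lower in monocytes, and no alternative moved any of these ratios across 1. The ratios were 1.99 (1.78 to 2.23) in CD8B T, 1.86 (1.33 to 2.65) in NK, 1.51 (1.38 to 1.65) in B, 1.33 (1.20 to 1.47) in SOX13/RHEX T, 1.26 (1.17 to 1.36) in CD4 T and 0.790 (0.739 to 0.845) in monocytes. CD8B T, NK and B were past the threshold, but in barcodes of 2000 to 6000 UMIs the B ratio was 1.15 and the CD8B T ratio 1.40. B barcodes also carried the T cell genes CD3D, CD3E and THEMIS, summed to 33.7 CPM in A.G.-ES and 12.1 CPM in untreated. In CD4 T the same genes summed to 1879 and 1738 CPM. The part of T cell RNA in the TNFAIP3 level and ratio of B was not tested.

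BIRC3 was the most even of the inhibitors. It had 562 CPM in A.G.-ES and 497 CPM in untreated B cells, 381 and 377 CPM in monocytes, 327 and 361 CPM in SOX13/RHEX T, 277 and 303 CPM in CD4 T, 212 and 205 CPM in CD8B T, and 180 and 256 CPM in NK. B cells were highest in both libraries. No class was past the threshold, and B had the 1 ratio whose interval left out 1, at 1.13 (1.10 to 1.16).

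TRAF1 had 302.5 CPM in A.G.-ES and 564.8 CPM in untreated monocytes, 247 and 163 CPM in NK, 146 and 91.1 CPM in CD8B T, 70.8 and 35.8 CPM in SOX13/RHEX T, 65.7 and 75.9 CPM in CD4 T, and 28.8 and 14.2 CPM in B. It was the member with the widest range of ratios. Monocytes were lower in A.G.-ES at 0.536 (0.464 to 0.619), and B cells higher at 2.03 (1.76 to 2.35). Both were past the threshold under each alternative run, 13 for monocytes and 14 for B. SOX13/RHEX T had 1.98 (1.46 to 2.69) and was 1.49 with the looser gate. CD8B T had 1.60 (1.30 to 1.99), NK 1.52 (0.837 to 2.94) and CD4 T 0.866 (0.699 to 1.08). A difference between 2 classes in this ratio was not tested.

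**Figure D2:**
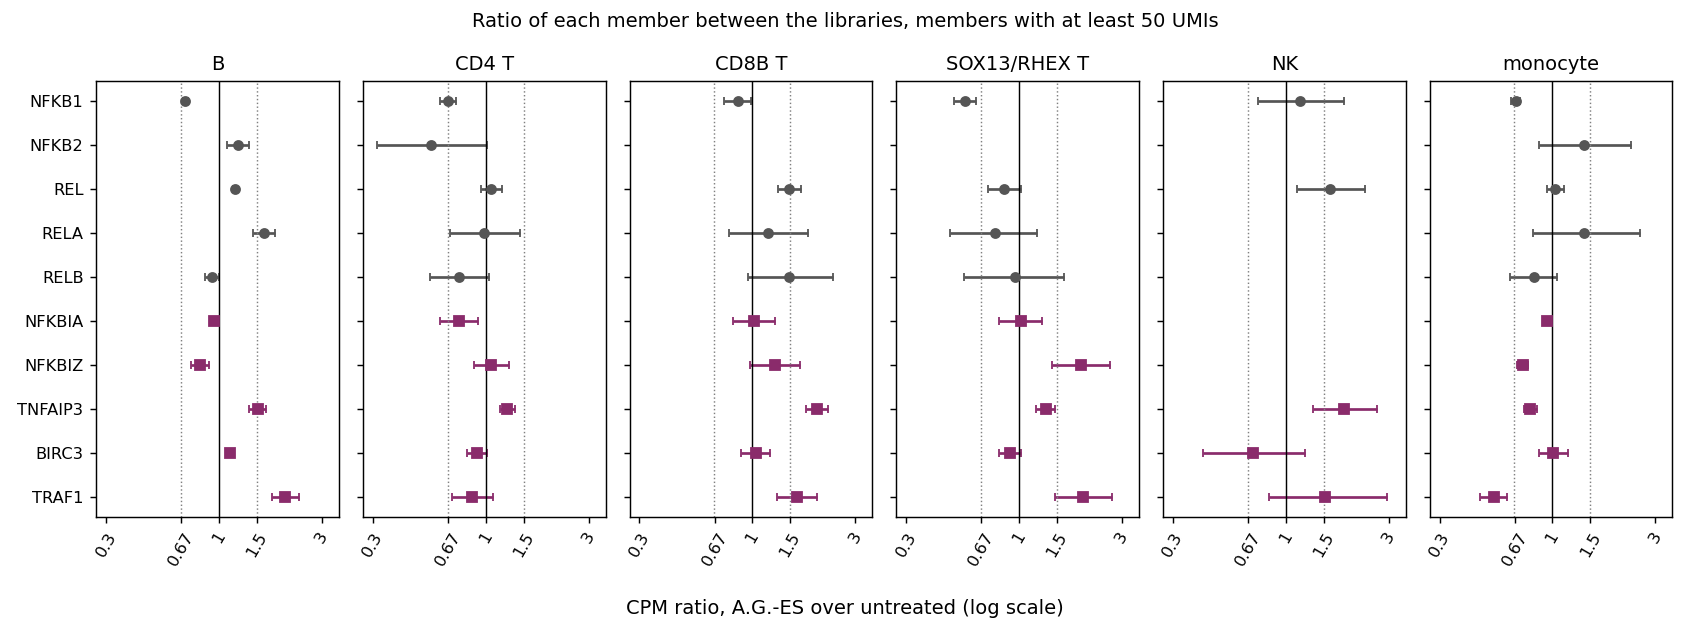
Ratio of CPM, A.G.-ES over untreated, on a log axis for each member with at least 50 UMIs in a class; circles are subunits, squares inhibitors, bars 95% intervals, dotted lines the 1.5-fold threshold. NFKB1 lies below 1 in every panel but NK (in CD8B T it was 1.08 with TMM scaling), and TRAF1 lies at 2.03 in B and 0.536 in monocytes.

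Counted by class, between 1 and 3 members were past the threshold, and each count is set beside the share of all genes with 50 UMIs that were past it. In B cells 3 of 10 members were higher (RELA, TNFAIP3 and TRAF1) and 0 lower, where 12.1% of 11134 genes were higher and 17.2% lower (29.3% either way). CD4 T had 0 of 10 higher and 1 lower (NFKB2), against 7.59% and 13.9% of 7742 genes (21.5% either way). In CD8B T 2 of the 9 members with 50 UMIs were higher (TNFAIP3 and TRAF1) and 0 lower, against 8.25% and 31.1% of 6500 genes (39.3% either way). SOX13/RHEX T had 2 of 9 higher (NFKBIZ and TRAF1) and 1 lower (NFKB1), where all 6092 genes gave 6.37% and 16.5% (22.9% either way). NK had 3 of 5 higher (REL, TNFAIP3 and TRAF1) and 0 lower, against 18% and 12.4% of 1253 genes (30.3% either way). Monocytes had 0 of 10 higher and 1 lower (TRAF1), against 9.93% and 14.4% of 4412 genes (24.3% either way). Counts of 1 to 3 members are too small to read as a property of the set.

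The median log2 ratio of all genes was not at 0. It was -0.12 in B, -0.14 in CD4 T, -0.29 in CD8B T, -0.15 in SOX13/RHEX T, 0.02 in NK and -0.08 in monocytes. Relative to these medians NFKB1 had ratios of 0.759 in B, 0.742 in CD4 T, 0.624 in SOX13/RHEX T and 0.715 in monocytes, and TRAF1 had 2.20 in B, 2.20 in SOX13/RHEX T and 0.565 in monocytes. TNFAIP3 relative to them had 1.64 in B, 1.39 in CD4 T, 1.48 in SOX13/RHEX T and 0.834 in monocytes.

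The inhibitors were then set against the subunits as UMIs of the 5 inhibitors per UMI of the 5 subunits. NFKB1 and NFKB2 were counted as subunits although their transcripts encode precursors, and some genes grouped as inhibitors also have promoting roles. The quotient is therefore not a clean measure of inhibition against activation. The level of this quotient depends on how well each transcript's 3′ end was captured, and so only its difference between libraries within a class was read. It was 2.32 in A.G.-ES and 1.30 in untreated SOX13/RHEX T, 1.82 and 1.35 in CD4 T, 1.66 and 1.34 in CD8B T, 2.15 and 1.96 in monocytes, 0.590 and 0.537 in B, and 1.26 and 1.30 in NK. The quotient was higher in A.G.-ES in 5 of 6 classes. A.G.-ES over untreated it was 1.79 (1.60 to 2.01) in SOX13/RHEX T, 1.35 (1.24 to 1.46) in CD4 T, 1.24 (1.11 to 1.39) in CD8B T, 1.10 (1.04 to 1.16) in monocytes, 1.10 (1.07 to 1.13) in B and 0.965 (0.696 to 1.34) in NK.

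Single members carried much of this. Without NFKB1 among the subunits the figure was 0.921 in B and 0.812 in monocytes, on the other side of 1, and 1.08 in CD4 T, 1.04 in CD8B T and 1.36 (1.16 to 1.61) in SOX13/RHEX T. Without TNFAIP3 among the inhibitors it was 1.13 in CD4 T, 0.974 in CD8B T, 1.63 in SOX13/RHEX T and 0.631 (0.430 to 0.925) in NK. In monocytes it was 0.988 without NFKBIA. SOX13/RHEX T was the class where it stayed above 1, with its interval, whichever member was left out, at 1.36 to 2.08. Unlike B, CD8B T and monocytes, this class was not divided by a subset marker. IL1R1 and CCL5 also differed between its libraries, as given below, and the part of a shift of subsets within the class was not tested.

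In SOX13/RHEX T the summed inhibitors were at 1030 CPM in A.G.-ES and 876 CPM in untreated, a ratio of 1.18 (1.10 to 1.26), and the summed subunits at 444 and 676 CPM, a ratio of 0.657 (0.598 to 0.720). In monocytes both sums were lower in A.G.-ES, the inhibitors at 9288 against 11147 CPM (0.833, 0.809 to 0.858) and the subunits at 4315 against 5686 CPM (0.759, 0.728 to 0.791). In CD8B T both were higher, the inhibitors at 1137 against 755 CPM and the subunits at 684 against 566 CPM. Without cycling barcodes the CD8B T subunits turned to lower, at 697 CPM in A.G.-ES against 843 CPM in untreated, and the inhibitors were at 1186 against 1156 CPM.

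**Figure D3:**
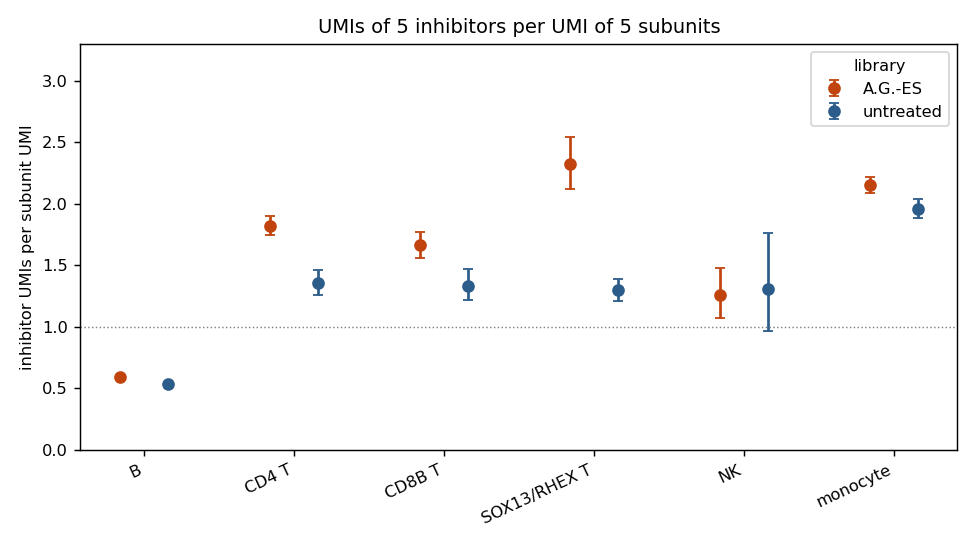
UMIs of the 5 inhibitors per UMI of the 5 subunits in each class, A.G.-ES in orange left of untreated in blue, with 95% intervals; the dotted line marks 1. The quotient is 2.32 in A.G.-ES and 1.30 in untreated SOX13/RHEX T, and nearly level in NK.

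The share of barcodes with at least 1 UMI was compared after each barcode was thinned to 1500 UMIs, since depth differed. NFKB1 was found in 42.8% of A.G.-ES and 52.2% of untreated B barcodes, 35.5% and 45.7% of CD4 T, 30.8% and 41.8% of SOX13/RHEX T, and 93.0% and 99.0% of monocytes. In B, CD4 T and SOX13/RHEX T the intervals did not overlap. Before thinning the NFKB1 shares were 73.0% and 86.5% in B, 65.2% and 80.7% in CD4 T, and 64.9% and 74.5% in SOX13/RHEX T, while in monocytes they turned, at 98.9% and 98.1%. TRAF1 was found in 4.58% of A.G.-ES and 2.16% of untreated B barcodes (13.1% and 11.3% before thinning) and in 10.7% and 4.10% of SOX13/RHEX T (24.4% and 12.4%). TNFAIP3 was found in 54.5% and 39.5% of CD8B T (77.0% and 63.2%) and in 8.09% and 5.91% of B (23.3% and 24.8%). In monocytes TNFAIP3 went the other way, at 80.5% and 94.3% (97.3% and 98.1%), with thinned intervals that did not overlap. For TNFAIP3 in B the direction thus turned when barcodes kept their own depth, and RELA in B did the same, at 6.44% and 3.73% thinned and 18.6% and 19.6% not thinned. REL in B also turned, at 69.4% and 66.9% thinned and 92.2% and 94.7% not thinned.

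**Figure D4:**
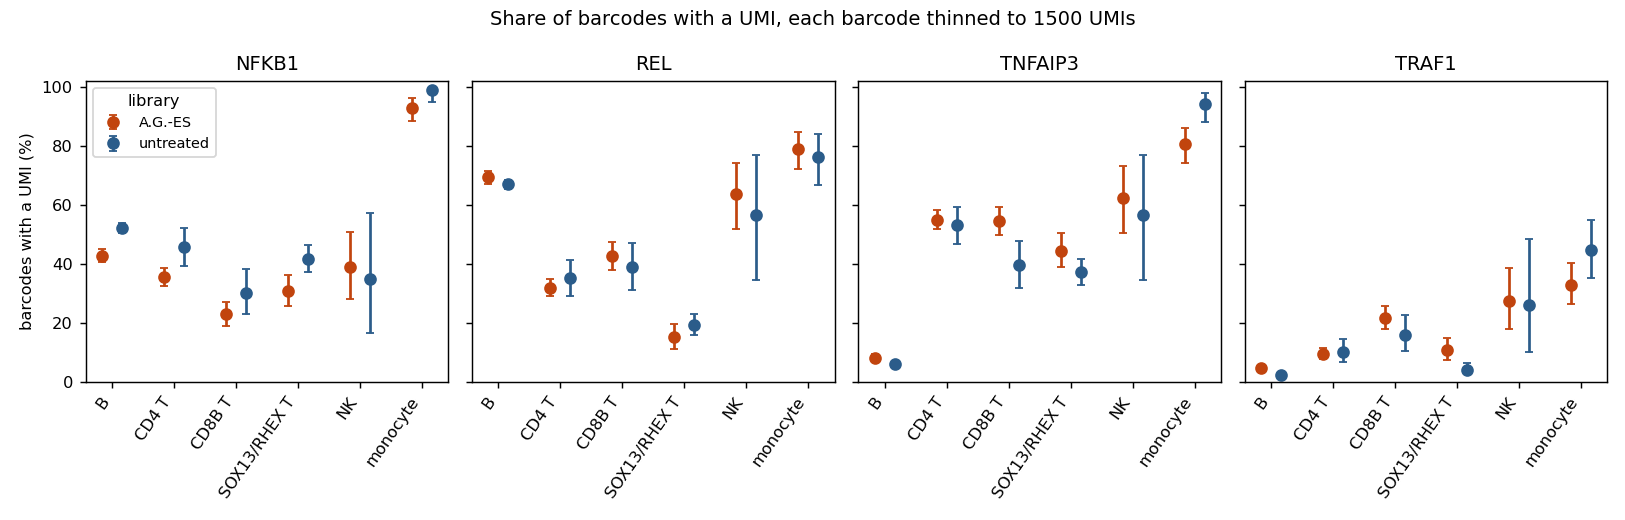
Percentage of barcodes with at least 1 UMI of NFKB1, REL, TNFAIP3 or TRAF1 after thinning to 1500 UMIs, A.G.-ES in orange left of untreated in blue, with exact 95% binomial intervals. NFKB1 is found in 42.8% of A.G.-ES and 52.2% of untreated B barcodes, and TRAF1 in 10.7% and 4.10% of SOX13/RHEX T barcodes.

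No blood class is known to lack these genes, so none serves as a background for the shares. Free RNA was instead followed through S100A8, a monocyte transcript at 1631 CPM in A.G.-ES and 1316 CPM in untreated monocytes. In B cells it stood at 0.105% and 0.0459% of those levels. Monocyte NFKBIA at the same percentages would give 4.84 and 2.24 CPM in B cells, against 279 and 294.5 CPM measured. TRAF1 of CD8B T cells at the percentage of GNLY found in B cells (0.697% and 0.521%) would give 1.02 and 0.475 CPM, against 28.8 and 14.2 CPM measured. NK had 0 S100A8 UMIs in A.G.-ES and 1 in untreated, too few to place its free RNA.

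Within monocytes, NFKB1, NFKBIZ and TNFAIP3 had lower medians over barcodes in A.G.-ES. Thinned to 1500 UMIs, the median barcode had 4 NFKB1 UMIs in A.G.-ES and 6 in untreated, 3 and 4 of NFKBIZ, 2 and 3 of TNFAIP3, and 6 of NFKBIA in both. The highest 10% of barcodes began at 10 NFKB1 UMIs in A.G.-ES and 13 in untreated, and at 6 and 9 for NFKBIZ. TRAF1 had a median of 0 UMIs in both libraries, and was found in 33.0% (26.3 to 40.3%) of A.G.-ES and 44.8% (35.0 to 54.8%) of untreated monocytes after thinning, with overlapping intervals. Monocytes were also divided by FCGR3A, which marks the non-classical subset in humans, with an FCGR3A UMI in 74 of 188 A.G.-ES and 35 of 108 untreated barcodes. The TRAF1 ratio was 0.535 in barcodes with an FCGR3A UMI and 0.538 in those without, and the NFKB1 ratio was 0.774 and 0.638. Granulocyte genes summed to 220 and 223 CPM in monocytes, most of it CSF3R, with MPO at 0 UMIs in both libraries.

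**Figure D5:**
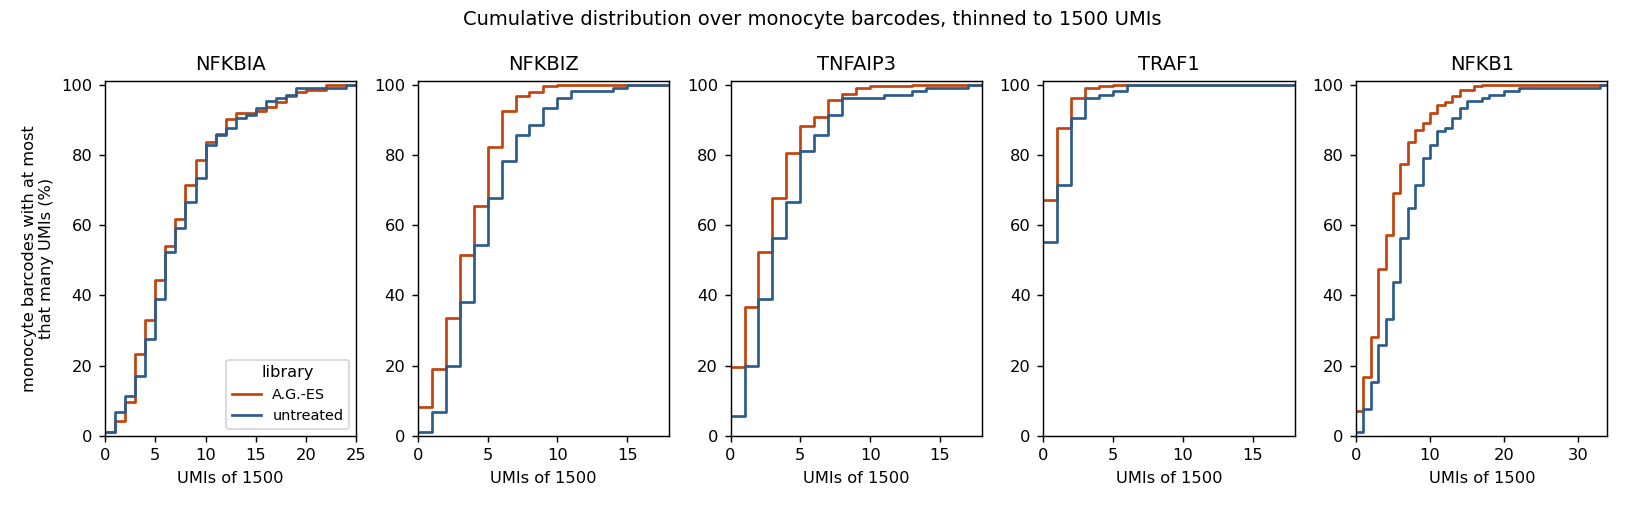
Cumulative percentage of monocyte barcodes against UMIs of a member after thinning to 1500 UMIs, A.G.-ES in orange (185 barcodes) and untreated in blue (105 barcodes); a curve further left means fewer UMIs. The NFKB1 curves are furthest apart, with medians of 4 and 6 UMIs, and the NFKBIA curves nearly coincide, with medians of 6 in both.

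CD8B T cells differed between libraries in more than the members. The cycling genes MKI67 and TOP2A summed to 93.1 CPM in A.G.-ES and 725 CPM in untreated. Early genes known to answer cell handling, such as FOS and JUN, summed to 2838 and 1029 CPM, and all 10 of those with 50 UMIs were past the threshold for higher in A.G.-ES, beside 8.25% of all genes. Barcodes with a UMI of MKI67 or TOP2A numbered 33 of 457 in A.G.-ES and 56 of 155 in untreated. Without them TNFAIP3 was at 638 and 494 CPM, a ratio of 1.29 (1.12 to 1.49), and TRAF1 at 152 and 150 CPM, a ratio of 1.01 (0.783 to 1.33). REL then had 0.984 (0.844 to 1.15), NFKB1 0.625 (0.517 to 0.758) and NFKBIA 0.525 (0.406 to 0.682), at 97.3 CPM in A.G.-ES and 185 CPM in untreated. None of the CD8B T calls among all barcodes was therefore kept, and the members past the threshold were NFKB1 and NFKBIA, both lower. The early genes still summed to 3013 and 1724 CPM in these barcodes, and their part in the remaining values was not tested.

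Cycling barcodes were a smaller share of B, CD4 T and SOX13/RHEX T than of CD8B T. They numbered 55 of 1946 A.G.-ES and 374 of 3520 untreated B barcodes. In CD4 T they numbered 49 of 991 and 36 of 254, and in SOX13/RHEX T 10 of 299 and 13 of 490. In B and CD4 T their share was larger in untreated. Without them NFKB1 had ratios of 0.693 in B, 0.641 in CD4 T and 0.565 in SOX13/RHEX T, and TRAF1 had 2.08 in B and 1.94 in SOX13/RHEX T. Genes of plasma cells summed to 391 and 737 CPM in B cells. Of these genes JCHAIN, an immunoglobulin-joining gene that rises toward the plasma cell stage, was absent from 1258 of 1946 A.G.-ES and 1049 of 3520 untreated barcodes. In these the TRAF1 ratio was 2.07 (1.64 to 2.64), the NFKB1 ratio 0.764 (0.730 to 0.801) and the TNFAIP3 ratio 1.20 (1.04 to 1.38). FCER2, the low-affinity IgE receptor of B cells, had a UMI in 271 A.G.-ES and 175 untreated B barcodes, and there TRAF1 had a ratio of 2.47 (1.60 to 3.87).

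Of the receptors that feed the pathway, TNFRSF1B, a TNF receptor that signals through TRAF proteins, had 159 CPM in A.G.-ES and 52.4 CPM in untreated B cells, a ratio of 3.03 (2.83 to 3.24), and 1042 and 511 CPM in NK, 668 and 418 CPM in CD8B T, and 899 and 1256 CPM in monocytes (0.715, 0.654 to 0.783). Of the receptors with 50 UMIs, 3 of 5 were higher in B, 2 of 3 in CD8B T, 1 of 5 in CD4 T, 1 of 1 in NK, 1 of 3 in SOX13/RHEX T and 0 of 5 in monocytes, and 0 were lower in any class. Of all genes with 50 UMIs, 12.1% were higher in B, 8.25% in CD8B T, 7.59% in CD4 T, 18% in NK, 6.37% in SOX13/RHEX T and 9.93% in monocytes. The SOX13/RHEX T call was IL1R1, the interleukin-1 receptor, at 63.4 CPM in A.G.-ES and 4.53 CPM in untreated, on 94 and 10 UMIs.

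Of the upstream kinases and adaptors in B, 0 of 24 were higher and 1 lower, beside 12.1% and 17.2% of all genes. The lower one was TRAF3, a brake on the non-canonical branch, at 276 CPM in A.G.-ES and 429 CPM in untreated (0.643, 0.618 to 0.668). MALT1, the protease that links antigen receptors to NF-kB, had ratios of 0.531 (0.463 to 0.609) in CD8B T, where 0 of 21 were higher and 4 lower (all genes 8.25% and 31.1%), and 0.598 (0.494 to 0.720) in SOX13/RHEX T, where 1 of 18 was higher and 3 lower (all genes 6.37% and 16.5%). CD4 T had 1 of 23 higher and 2 lower (7.59% and 13.9%), NK 0 of 3 and 1 (18% and 12.4%), and monocytes 1 of 11 and 1 (9.93% and 14.4%). The medians of the list lay between -0.22 (monocytes) and -0.05 (B and CD8B T) on the log2 scale.

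Other inhibitors of the pathway had 1 of 13 higher and 1 lower in B (all genes 12.1% and 17.2%), 0 of 12 and 2 in CD4 T (7.59% and 13.9%), and 2 of 11 and 2 in CD8B T (8.25% and 31.1%). SOX13/RHEX T had 0 of 10 and 1 (6.37% and 16.5%), NK 0 of 2 and 0 (18% and 12.4%), and monocytes 1 of 11 and 1 (9.93% and 14.4%). NFKBIE, which encodes IκBε, was the lower one in B, at 53.7 CPM in A.G.-ES and 111 CPM in untreated (0.483, 0.442 to 0.527). TNIP1, a partner of A20, was the lower one in monocytes, at 927 and 1430 CPM (0.648, 0.595 to 0.707), and NFKBIB, which encodes IκBβ, the higher one there, at 277 and 165 CPM (1.68, 1.35 to 2.11).

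Genes commonly listed as NF-kB targets had 7 of 15 higher and 1 lower in B, where all genes gave 12.1% and 17.2%, with a list median log2 ratio of 0.58 beside -0.12 for all genes. The lower one was LTB, a membrane-bound cytokine, at 131 CPM in A.G.-ES and 309 CPM in untreated, and the highest ratio was that of the adhesion molecule ICAM1, at 2.89 and 0.725 CPM on 32 and 24 UMIs. The other classes had 1 of 8 higher and 0 lower in CD4 T (all genes 7.59% and 13.9%), 3 of 8 and 1 in CD8B T (8.25% and 31.1%), 2 of 5 and 1 in SOX13/RHEX T (6.37% and 16.5%), 1 of 2 and 0 in NK (18% and 12.4%), and 1 of 13 and 0 in monocytes (9.93% and 14.4%). CCL5, a T and NK cell chemokine, was the higher one in CD4 T and NK and had the highest ratio in SOX13/RHEX T, at 260 CPM in A.G.-ES and 11.8 CPM in untreated, beside 2543 and 843 CPM in CD8B T. In monocytes the neutrophil chemokine CXCL8 was at 6368 and 8616 CPM (0.739, 0.714 to 0.765) and CD80, a costimulatory ligand, was the higher one, at 73.4 and 22.2 CPM. The early genes that answer handling, read against the same shares of all genes, had 2 of 12 higher and 2 lower in B, 5 of 9 and 0 in CD4 T, 0 of 8 and 0 in SOX13/RHEX T, 3 of 5 and 0 in NK, and 0 of 12 and 1 in monocytes. Their sums were 1391 CPM in A.G.-ES and 1075 CPM in untreated CD4 T and 3912 and 1987 CPM in NK. TNFAIP3 was also higher in these 2 classes, and the part of the early genes in that was not tested.

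Genes with the pattern most like each member were ranked by Pearson r of log2(CPM + 1) over 12 points, the 6 classes in both libraries, among 3829 genes with a symbol and at least 2000 UMIs. The points share libraries, and monocytes weigh heavily in them. NFKB1 was most like PTPN1 (r = 0.982), QKI (0.971) and HIF1A (0.969), and NFKBIA most like PDE4B (0.980), CTSS (0.979) and QKI (0.971). NFKBIZ was most like VMP1 (0.982), IL1A (0.978) and CXCL8 (0.972). TNFAIP3 and TRAF1 shared both NIBAN1 (0.944 and 0.944) and TNFRSF1B (0.943 and 0.936) among their 3 nearest genes, with CFLAR (0.952) nearest to TNFAIP3 and DOCK10 (0.952) nearest to TRAF1. REL was most like DENND4A (0.971), PTPRJ (0.960) and TEC (0.945), and BIRC3 most like LRRK2 (0.912), CNR2 (0.905) and APLF (0.897). For NFKB2 the nearest were SLC7A5 (0.960), CTSH (0.959) and SERPINB1 (0.947), for RELB PXDC1 (0.936), ATP10D (0.936) and GPCPD1 (0.935), and for RELA IST1 (0.848), STAM2 (0.845) and RNF220 (0.839).

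Between members the closest pairs across the 12 points were NFKB1 with NFKBIA (r = 0.935), REL with RELB (0.928), NFKBIA with NFKBIZ (0.910) and TNFAIP3 with TRAF1 (0.901). The most negative r were those of BIRC3 with TNFAIP3 (-0.473) and TRAF1 (-0.468) and of NFKB2 with RELA (-0.454). TNFAIP3 was therefore closest to TRAF1, followed by NFKBIZ (0.669), and further from NFKBIA (0.367) and from every subunit, the nearest of which was NFKB1 (0.396).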

How the data were processed

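For each library the authors deposited raw UMI counts per gene and barcode, made with the SeekOne DD 3′ kit per the labels' protocols. Aligner, genome build, strand handling and cell calling: not given in the sources used here. Of the 26814 gene names, all matched a RefSeq table of the assembly ARS-UI_Ramb_v3.0, used for names and Y-linked genes. NFKB1 and NFKB2 each overlap 1 long non-coding RNA locus there, with 0 UMIs in every class. Columns of other samples numbered 0.

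Filters asked for 500 or more UMIs, 200 or more genes and no more than 15% mitochondrial UMIs per barcode. Doublets were scored with Scrublet (scanpy 1.11.5) and the highest scores removed at 0.8% per 1000 barcodes, 715 in A.G.-ES and 523 in untreated (7.56% and 6.47%); Scrublet's own threshold marked 216 and 217. A barcode passed the B gate (MS4A1, CD79A, CD79B, PAX5, BANK1 and EBF1 among its genes), T gate (CD3D, CD3E, THEMIS) or monocyte gate (CSF1R, CD14 and VCAN among its genes) with at least 3 UMIs from at least 2 genes and at least 80% of the UMIs of the 3 lists. CD3G, TRAT1 and CD163, also listed, were not among the gene names, and the gates' remaining genes are not reported here. T barcodes were divided by CD4, CD8B and the sum of SOX13 and RHEX (at least 2 UMIs for that class), and NK barcodes needed NCR1 with at most 2 T, 1 B and 1 monocyte UMI and none of CD4 or CD8B.

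Counts were summed per library and class. CPM carry exact Poisson, ratios exact conditional binomial and shares exact Clopper-Pearson intervals at 95%. With 1 library per group no test was made. The ratio and its interval were run on counts simulated with Poisson error alone, the same counting error that the interval assumes. That run cannot show how the interval holds under spread between barcodes or animals. The members, the gene lists, the gates and the rules were chosen with earlier results of these data known. All 10 members are named in every class. Of each other list, named genes were the 2 with the most UMIs and those with the highest and lowest ratio among genes with 50 UMIs, and the text gives a part of these. For likeness the 3 nearest genes were named. Alternatives were TMM (edgeR 4.0.16) or median scaling, a restricted total, equal weights, other gates, filters, depths and thresholds, and, chosen after seeing the data, a looser gate, leaving out barcodes in both libraries or cycling barcodes, and divisions by JCHAIN, FCER2, GNLY or FCGR3A.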

Additional observations from a re-analysis of the deposited data

Results flagged for a closer look

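TRAF1 moved in opposite directions in different classes, each with an interval that leaves out 1. Its ratio, A.G.-ES over untreated, was 2.03 in B, 1.6 in CD8B T and 1.98 in SOX13/RHEX T, and 0.536 in monocytes. The difference between classes was not tested, since each class has 1 library per group. The CD8B T value was 1.01 without barcodes that carried a UMI of MKI67 or TOP2A, and the B and monocyte values were past 1.5-fold under every alternative run.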

How the results depend on the processing

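No paired analysis was possible because each group has 1 library. Of 719 alternative values of single member ratios, 610 stayed within the main interval, 109 moved and 0 turned a call around. Ratios that were not called did cross 1, as for RELA in CD4 T under 6 of 11 alternatives and NFKBIA in CD8B T under 5 of 13. Some calls were lost. TNFAIP3 was past the threshold under 9 of 14 alternatives in B, and TNFAIP3 and TRAF1 each under 9 of 13 in CD8B T. The number of members at least 1.5-fold apart was 3 in B, 1 in CD4 T, 2 in CD8B T, 3 in SOX13/RHEX T, 3 in NK and 1 in monocytes. In B it was 1 in barcodes of 2000 to 6000 UMIs, 1 with no JCHAIN UMI and 1 at 2-fold. In CD4 T it was 2 with every barcode weighted alike, 2 with doublets kept, 2 with the looser gate and 2 without cycling barcodes, and 0 with the stricter gate, 0 at 200 UMIs and 0 at 2-fold. CD8B T had 5 with median centring, 5 with TMM, 4 with the restricted total, 1 with the stricter gate, 1 below 10 GNLY UMIs and 0 at 2-fold. With median centring and TMM the added CD8B T calls were all higher. SOX13/RHEX T had 1 at 200 UMIs and 0 at 2-fold, and NK 1 with every barcode weighted alike and 0 at 2-fold. Monocytes had 3 with the restricted total, 4 at 5% mitochondrial UMIs, 2 with equal weights, doublets kept, the looser gate, and with or without an FCGR3A UMI, and 0 at 2-fold.

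Inhibitor per subunit UMIs, A.G.-ES over untreated, were 1.10 in B, and 1.05 with every barcode weighted alike, 1.06 at 2000 to 6000 UMIs and 1.20 with an FCER2 UMI. CD8B T had 1.24, and 1.03 at 2000 to 6000 UMIs, 1.08 with 10 GNLY UMIs and 1.08 with each member weighted alike. CD4 T had 1.35 and 1.22 with each member weighted alike, and SOX13/RHEX T 1.79 and 1.60 with the looser gate. Monocytes had 1.10 and 1.18 with no FCGR3A UMI, but turned below 1 at 2000 to 6000 UMIs (0.988), with an FCGR3A UMI (0.951) and with each member weighted alike (0.764). Unthinned shares of B barcodes turned for RELA (-1.05 percentage points), TNFAIP3 (-1.55) and REL (-2.45, where the thinned intervals overlapped). The causes were not tested. Depth limits NK most, where 5 of 10 members had under 50 UMIs.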
